A study of Rattus norvegicus with 8 samples.

Results

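Chemosensory receptors are the membrane proteins with which the nose, the vomeronasal organ and the tongue detect odours, pheromones and tastes. On an array of rat hypothalamic RNA, 48 of the 1379 chemosensory receptor genes of the design gave a signal well above background. They were chosen by name and by detection: a probe (a 60-base oligonucleotide printed on the array) whose gene name begins with Olr, Vom1r, Vom2r, Taar, Tas1r or Tas2r and a number, and which the scanner software marked as well above its local background on every array of the TCDD or of the control group. The 1379 genes have 1451 probes among 30367 on the array, and each of the 48 genes was detected with a single probe. Since detection chose them, their being detected is a description and not a finding.

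The samples were from the hypothalamus of lactating Wistar dams at postpartum day 7, 4 samples from dams exposed to TCDD and 4 from control dams. TCDD (2,3,7,8-tetrachlorodibenzo-p-dioxin) is the most studied dioxin, a pollutant that binds the aryl hydrocarbon receptor. Both groups share the strain, the stage and the tissue, and neither dose nor route nor time of exposure is stated in the labels. Each sample's RNA was hybridised to 1 array in 1 colour (Cy3). The 4 arrays of each group lay on a slide of their own, so slide and group cannot be told apart. The number of arrays limits the precision of every value.

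Olfactory receptors (Olr in the rat) are G protein-coupled receptors of the sensory neurons of the nose and form the largest gene family of the rodent genome. In those neurons each cell uses 1 receptor gene, and the signal runs through the G protein subunit Gnal, adenylyl cyclase Adcy3 and a cyclic nucleotide-gated channel that holds Cnga2. The Vom1r and Vom2r families serve the vomeronasal organ through the channel Trpc2, trace amine-associated receptors (Taar) detect volatile amines in the nose, and the Tas1r and Tas2r families detect sweet, umami and bitter tastes. Transcripts of single members have been described outside these organs, brain included.

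Signals are given as log2 of the processed signal relative to the 75th percentile of the same array, so a value of 0 is the signal that 75 in 100 of the array's probes stay below. That percentile was 511 to 699 intensity units on the TCDD arrays and 474 to 666 on the control arrays. Signals of different probes depend on the probe and are not amounts of RNA. They are set side by side only to say which lay above background. The negative control spots, which match no rat transcript, had medians of -7.92 to -7.34 on the TCDD arrays and of -8.05 to -7.74 on the control arrays on this scale.

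Most of the receptor class lay at that floor. The median mean signal of the 1451 receptor probes was -7.60, and 1257 of them were above background on 0 of 8 arrays. A further 146 were above background on 1 to 7 arrays without passing the rule, and 108 of those were so on exactly 1 array. The 48 that passed were 3.31% of the class, against 65.89% of the other 28916 probes. By family they were 40 of 1211 Olr probes (3.3%), 3 of 93 Vom1r probes (3.23%), 4 of 95 Vom2r probes (4.21%) and 1 of 17 Taar probes (5.88%). Neither of the 2 Tas1r probes and none of the 33 Tas2r probes passed, and none of those 35 was above background on any array.

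The number of receptor probes above background was 56, 89, 88 and 87 on the TCDD arrays, against 66, 82, 73 and 73 on the control arrays. The first TCDD array had the fewest of all 8, and the other 3 TCDD arrays had more than any control array. That array also had the smallest share of other probes above background, 64.6%, against 68.69% to 69.61% on the other TCDD arrays and 68.01% to 69.8% on the control arrays. Of the 48 genes, 40 were detected on all 8 arrays. Olr386, Olr563 and Taar8c passed through the TCDD group and were above background on 3 of 4 control arrays. Olr1401, Olr237 and Olr132 passed through the control group and were above background on 3 of 4 TCDD arrays, and Olr714 and Olr651 on 2 of 4.

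**Figure D1:**
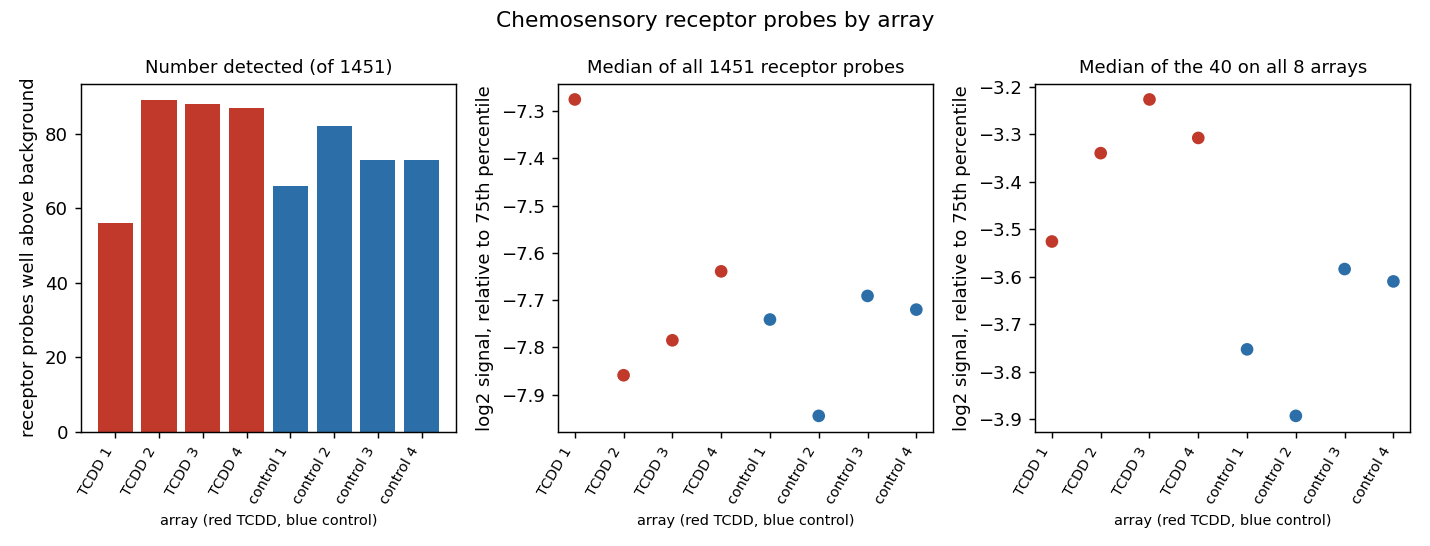
Receptor probes on each array, TCDD arrays in red and control arrays in blue. The left panel counts the receptor probes well above background (56 to 89 on TCDD arrays, 66 to 82 on control arrays), the middle panel plots the median log2 signal of all 1451 receptor probes and the right panel that of the 40 detected on all 8 arrays, where all 4 TCDD arrays lie above all 4 control arrays.

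The check of the tissue gave hypothalamic neuropeptide genes at high signal. Pmch, the precursor of melanin-concentrating hormone, averaged 7.17 ± 0.11 on the TCDD arrays and 7.11 ± 0.06 on the control arrays (SD, n = 4 each), and 15 of 16 hypothalamic marker genes were measured on all 8 arrays. The defining markers of olfactory sensory neurons and their epithelium were at background. Omp (the olfactory marker protein), Cnga2, Stoml3, Ugt2a1 and Cyp2g1 were above background on 0 arrays. Of the 8 genes of the olfactory epithelium and bulb list that the array holds, Gng8, Tbx21 and Cdhr1 were above background on all 8. The summed signal of that list was 5.17 to 5.34 on the TCDD arrays and 4.98 to 5.15 on the control arrays, and Tbx21, a transcription factor used in bulb projection neurons, made up most of it, at 5.18 ± 0.10 and 4.98 ± 0.09. Of the 6 probes of the taste bud markers Trpm5, Gnat3, Plcb2 and Pkd2l1, 4 were above background on 0 arrays, 1 of Plcb2 was so on 1 TCDD array and 1 of Pkd2l1 on 1 control array. Of the 6 sperm and testis genes, Prm1 alone passed the filter, at -5.12 ± 0.25 on the TCDD arrays and -5.06 ± 0.25 on the control arrays. Pituitary markers varied widely, with a summed signal of 1.97 to 6.16 on the TCDD arrays and 0.95 to 5.76 on the control arrays. Prl, the prolactin gene, did not pass the filter and had -5.74, 2.09, 2.53 and 2.57 on the TCDD arrays, against -7.29, 0.42, -7.55 and -7.55 on the control arrays. Gh1, the growth hormone gene, had -7.46, -2.54, -2.08 and -1.63 on the TCDD arrays, against -7.97, -3.66, -7.84 and -7.97 on the control arrays. Both were above background on TCDD arrays 2, 3 and 4 and on control array 2. The 3 pituitary genes that were tested (Lhb, Tshb and Cga) had higher means on the TCDD arrays, none past the threshold. Choroid plexus markers summed to 0.41 to 2.65 on the TCDD arrays and 0.65 to 2.00 on the control arrays. The part of these tissues in the receptor signals was not tested beyond these values.

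**Figure D2:**
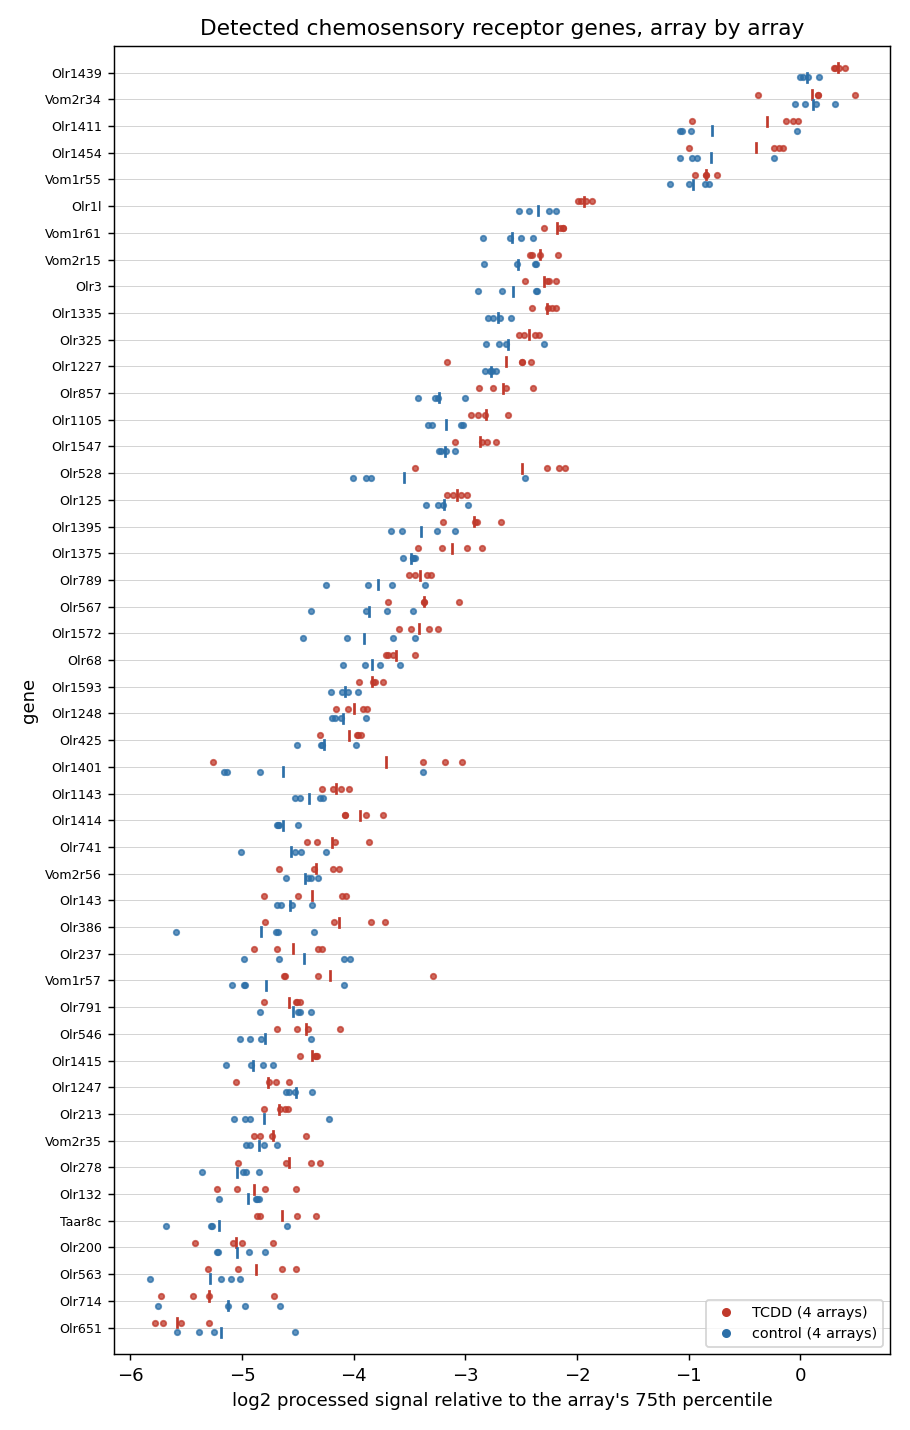
Log2 signal of the 48 detected receptor genes relative to the array's 75th percentile, ordered by mean signal. Each dot is 1 array, red (upper) for TCDD and blue (lower) for control, and the short bars are group means. Most red bars lie to the right of their blue partners, and Olr1411, Olr1454, Olr528 and Olr1401 each fall into separate high and low arrays within both groups.

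The highest receptor signal came from Olr1439, an olfactory receptor gene now named Or2ak6, whose probe lies at chr10:44704257-44704316 on the plus strand of rat build rn4. All coordinates here are those of the array design on rn4. No annotation of that build was used, so positions relative to exons and untranslated regions are not given. The probe is shown because its gene is the one receptor with a signal above the 75th percentile on every TCDD array.

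Olr1439: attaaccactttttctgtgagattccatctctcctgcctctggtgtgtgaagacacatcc

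Olr1439 had 0.30, 0.40, 0.34 and 0.31 on the TCDD arrays, against 0.02, 0.07, -0.01 and 0.16 on the control arrays. All 4 TCDD arrays lay above all 4 control arrays. The difference, TCDD minus control, was 0.28 (SE 0.055, limma adjusted p = 0.132), which does not pass the threshold of an adjusted p under 0.05.

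Of the other members, 4 had mean signals above -1: Vom2r34, Olr1411, Olr1454 and Vom1r55. The vomeronasal receptor gene Vom1r55 averaged -0.85 ± 0.08 on the TCDD arrays and -0.96 ± 0.16 on the control arrays, and the groups overlapped. The remaining 43 members had group means between -5.58 and -1.94 on the TCDD arrays and between -5.28 and -2.35 on the control arrays. Next in signal stood Olr1l (now Or6al1), Vom1r61, Vom2r15, Olr3, Olr1335, Olr325, Olr1227, Olr857 and Olr1105, with TCDD means between -2.82 and -1.94 and control means between -3.24 and -2.35. The single trace amine receptor, Taar8c, averaged -4.64 ± 0.26 on the TCDD arrays and -5.21 ± 0.45 on the control arrays.

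The members of lowest mean signal were Olr651, Olr714, Olr563 and Olr200. Olr651 averaged -5.58 ± 0.21 on the TCDD arrays and -5.18 ± 0.46 on the control arrays. Just outside the rule, detected on 3 of 4 arrays of each group, stood Olr922, Vom1r23, Olr168 and Vom1r37, with TCDD means of -4.76, -4.47, -4.88 and -4.94 and control means of -5.01, -5.37, -5.15 and -5.14. Vom1r23 was highest on the second TCDD array, at -2.85, against -5.10 to -4.86 on the others.

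Several receptors with described roles outside the nose did not pass. Taar1, the brain's receptor for trace amines, was above background on 0 arrays, with means of -7.61 (TCDD) and -7.78 (control). The taste receptor subunits Tas1r1 and Tas1r3 were likewise on 0 arrays. Olr59, an olfactory receptor studied in the rat kidney, was above background on 1 TCDD and 1 control array.

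Receptors of the ancient class I, which are most like those of fish (current family names Or51 to Or56), gave 5 members among 127 probes (3.94%), namely Olr125, Olr68, Olr143, Olr132 and Olr200. Class II gave 32 among 1008 probes (3.17%). By position, 18 members lay on chromosome 1 (of 409 receptor probes), 10 on chromosome 3 (of 293), 8 on chromosome 10 (of 123) and 5 on chromosome 8 (of 159). Chromosomes 4, 20 and 15 gave 0 of 104, 0 of 54 and 0 of 37 probes. The members' probes were richer in G and C: their median GC content was 45%, against 40% for the other receptor probes and 45% for all other probes. Members made up 5.71% of receptor probes with 40 to 45% GC and 14.29% of the 28 above 50%, against 0.69% of those with 35 to 40%.

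For 6 of the 48 genes the array holds another probe, and none of the 6 passed the detection rule. The plot of paired probes shows the gap. Olr1411 (now Or1x2d) has its detected probe at chr10:36634918-36634977 and its other probe 5′ of it at chr10:36634653-36634712, both on the plus strand. The detected probe had -0.97, -0.13, -0.07 and -0.02 on the TCDD arrays, against -0.98, -1.08, -1.06 and -0.03 on the control arrays. The other had -5.82, -7.88, -7.82 and -7.72 on the TCDD arrays, against -7.87, -8.01, -7.72 and -7.79 on the control arrays, and was above background on none.

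Vom2r15 gave the closest pair. Its probes, on the minus strand at chr1:61256027-61256086 (detected) and chr1:61256042-61256101 (other), share 45 bases, printed in capitals.

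Vom2r15 detected: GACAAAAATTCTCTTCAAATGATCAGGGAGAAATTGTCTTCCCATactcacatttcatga
Vom2r15 other: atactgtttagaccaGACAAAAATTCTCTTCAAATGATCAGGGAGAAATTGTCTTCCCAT

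The detected Vom2r15 probe had -2.41, -2.17, -2.33 and -2.42 on the TCDD arrays, against -2.53, -2.38, -2.37 and -2.83 on the control arrays. The other probe had -7.35, -7.94, -7.84 and -7.73 on the TCDD arrays, against -8.00, -8.07, -7.74 and -7.82 on the control arrays. The other probe, which holds the same 45 bases, thus stayed at the level of the negative controls on all 8 arrays. What sets these 2 probes apart was not tested.

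The brightest vomeronasal probe was that of Vom2r34, at chr1:73083177-73083236 on the minus strand. It had -0.38, 0.16, 0.16 and 0.49 on the TCDD arrays, against 0.05, 0.14, 0.31 and -0.04 on the control arrays, and the groups overlapped. Its other probe, at chr1:73087477-73087534, averaged -6.77 on the TCDD arrays and -6.73 on the control arrays and was above background on none. The whole bright probe, aligned to the promoter windows of RefSeq (250 bases before to 50 after each gene's start, assembly GRCr8), was found in the same orientation in that of RGD1566355 with 1 mismatch and in that of the zinc finger gene Zfp62 with 2. No other member's probe was found whole in any window with up to 4 mismatches. The probe is printed in capitals throughout because the matches span its whole length, apart from these mismatches.

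Vom2r34 detected: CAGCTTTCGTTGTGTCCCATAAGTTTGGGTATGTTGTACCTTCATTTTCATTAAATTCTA
Vom2r34 other: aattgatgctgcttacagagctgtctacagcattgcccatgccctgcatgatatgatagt

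The other probes of Olr1454 and Vom2r56 were above background on 0 and 0 TCDD arrays and on 0 and 1 control arrays. That of Olr200 was so on 1 TCDD and 2 control arrays, and it stood closest to its partner, with means of -5.74 (TCDD) and -5.56 (control) beside -5.06 and -5.04. The values below belong to the probes named, not to every probe of a gene.

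**Figure D3:**
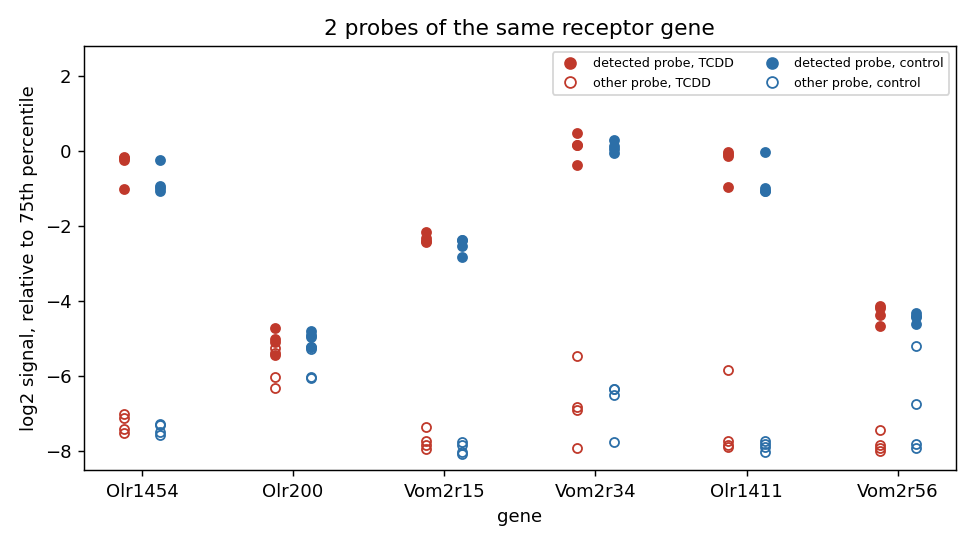
Log2 signal of the detected probe (filled) and of the other probe (open) of 6 receptor genes, with TCDD arrays in red at the left and control arrays in blue at the right of each gene. In 5 genes every open point lies below every filled one. In Olr200 they overlap.

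The comparison asks whether the receptor signals of TCDD-exposed dams differed from those of control dams. No receptor gene changed past the threshold. Limma called 3 of 16574 tested genes at an adjusted p under 0.05 (0.0181%), and 0 of the 48 members. At an unadjusted limma p under 0.05, 18 of the 48 were higher (37.5%) and 1 lower (2.08%), beside 7.28% and 3.72% of all tested genes. Most members nevertheless had a higher mean signal on the TCDD arrays, 41 of the 48 (85.42%), against 46.22% of all tested genes. Their differences ranged from -0.40 (Olr651) to 1.05 (Olr528). The 48 include members that passed the filter through 1 group alone, which the next paragraph leaves out.

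Over the 40 members detected on all 8 arrays, whose selection did not depend on either group alone, 36 had a higher mean on the TCDD arrays (90.0%), against 46.5% of the 15924 genes detected on all 8 arrays. The median difference of the 40 was 0.295 (quartiles 0.134 and 0.445), against -0.011 for the 18267 other probes detected on all 8 arrays (quartiles -0.078 and 0.070). At an unadjusted p under 0.05, 17 of the 40 were higher (42.5%), against 7.42% of all genes so detected, and 1 was lower (2.5%), against 3.59%. The groups did not overlap, with TCDD higher, in 10 of the 40 (25%), against 4.86% of all genes. With TCDD lower they did not overlap in 0 of the 40, against 2.39%. The members were chosen with results of these arrays known, and no test was made over the list.

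Array by array, the median of these 40 was -3.53, -3.34, -3.23 and -3.31 on the TCDD arrays, against -3.75, -3.89, -3.58 and -3.61 on the control arrays. Every TCDD array lay above every control array, the first TCDD array by the least. The other probes detected on all 8 arrays had medians of -0.67 to -0.64 on the TCDD arrays and -0.67 to -0.65 on the control arrays. Probes that the design leaves without a gene name also stood higher: the 1794 of them on all 8 arrays had a median difference of 0.089, and 71.3% were above 0. For the 13292 probes with a gene symbol outside the class these were -0.022 and 40.7%.

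Without the detection filter the shift was smaller and moved with 1 array. The 1451 receptor probes had a median difference of 0.145, against 0.009 for the other 28916. The first TCDD array had a median receptor signal of -7.28, against -7.86, -7.79 and -7.64 on the other TCDD arrays and -7.74, -7.95, -7.69 and -7.72 on the control arrays. Without that array the median difference was 0.031, while that of the 40 detected on all arrays was 0.321. The negative control spots of the first TCDD array were also the highest, at -7.34.

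Split by signal into 10 equal bins of all probes, the receptors followed the other probes where the signal was dim. In the dimmest bin the median difference was 0.153 for 617 receptor probes and 0.153 for the others, and in the next it was 0.117 for 513 receptor probes and 0.112 for the others. In bins 4, 5 and 6, counted from the dimmest, it was 0.246, 0.359 and 0.356 for 59, 21 and 13 receptor probes, against 0.005, 0.006 and -0.003 for other probes of the same signal. Bins 4 and 5 reach from -6.35 to -3.27 and hold most of the detected members. All 13 receptor probes of bin 6 had a difference above 0.

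**Figure D4:**
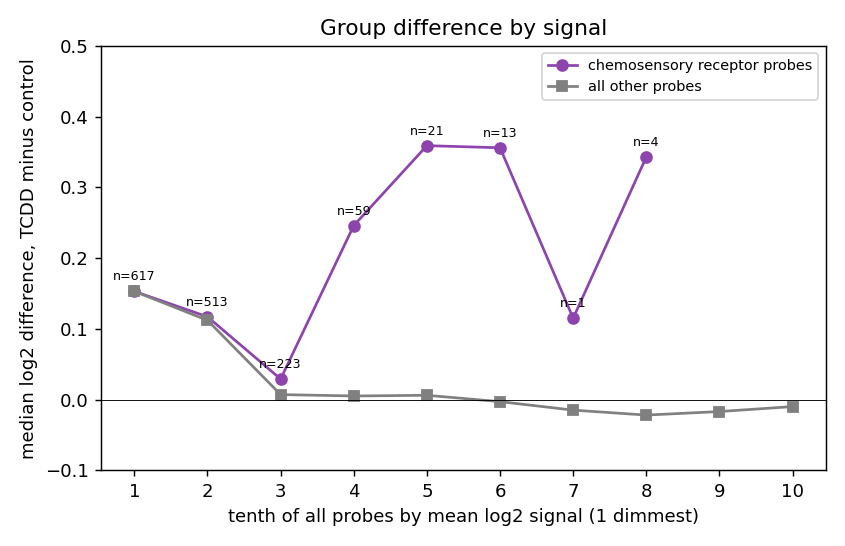
Median log2 difference, TCDD minus control, in 10 equal bins of all probes by mean signal, for receptor probes (circles, with their number) and all other probes (squares). Both start near 0.15 in the dimmest bin. From bin 4 on the other probes lie near 0 and the receptor probes between 0.115 and 0.359, with 4 or fewer receptor probes in bins 7 and 8.

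The members of smallest p were olfactory receptors, led by Olr1414 (now Or2av10), whose probe lies at chr10:44113403-44113462 on the minus strand. Olr1414 had -3.89, -3.73, -4.08 and -4.07 on the TCDD arrays, against -4.67, -4.68, -4.68 and -4.50 on the control arrays. The groups lay apart, and the difference was 0.69 (SE 0.090, limma adjusted p = 0.0585), a fold of 1.61. It passed with the filter of all 8 arrays (adjusted p = 0.04999) and with array weights (0.0284). Its neighbour Olr1415 (now Or2av9), whose probe lies at chr10:44131894-44131953, had -4.35, -4.33, -4.34 and -4.48 on the TCDD arrays, against -4.92, -5.15, -4.81 and -4.72 on the control arrays. Its difference was 0.52 (SE 0.093, adjusted p = 0.107), and the longest run of bases that the probes of these neighbours share is 10.

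Olr1335 (now Or10g9b) had -2.26, -2.23, -2.19 and -2.40 on the TCDD arrays, against -2.80, -2.75, -2.59 and -2.69 on the control arrays. Its groups lay apart, the difference of the means was 0.44 (SE 0.069, limma adjusted p = 0.0715), and it passed with array weights alone (0.0416). Its probe, at chr8:42946234-42946293 on the minus strand, is shown because it begins with ATG (in capitals), the letters of a start codon.

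Olr1335: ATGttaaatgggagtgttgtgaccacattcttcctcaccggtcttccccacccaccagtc

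Olr1l averaged -1.94 ± 0.05 on the TCDD arrays and -2.35 ± 0.15 on the control arrays (SD, n = 4 each), a difference of 0.41 (SE 0.080, adjusted p = 0.123). Olr857 (now Or13p4) averaged -2.67 ± 0.20 on the TCDD arrays and -3.24 ± 0.18 on the control arrays, a difference of 0.57 (SE 0.122, adjusted p = 0.154). The pheromone receptor gene Vom1r61 averaged -2.18 ± 0.08 on the TCDD arrays and -2.58 ± 0.19 on the control arrays, a difference of 0.41 (SE 0.098, adjusted p = 0.185). In each of these 3 genes every TCDD array lay above every control array. The same held for Olr1105, Olr1375 and Olr1593, whose differences were 0.36, 0.37 and 0.25. Among members on all 8 arrays, the largest differences after Olr528 (1.05) and Olr1414 were those of Olr857, Vom1r57 (0.57), Olr1415 and Olr1572 (0.49). Vom1r57 was highest on the fourth TCDD array, at -3.29, against -4.62 to -4.32 on the other 3, and Olr1572 overlapped between groups.

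Only 4 of the 40 had a lower mean on the TCDD arrays. Olr1247 (now Or8b46c) had -4.76, -5.05, -4.58 and -4.69 on the TCDD arrays, against -4.58, -4.37, -4.60 and -4.53 on the control arrays. Its difference was -0.25 (SE 0.105, adjusted p = 0.424), and the groups overlapped. The other 3, Olr791, Olr200 and Vom2r34, differed by -0.03, -0.02 and -0.004. Olr1248, which lies beside Olr1247 on chromosome 8, differed by 0.09, and its probe shares 48 bases (in capitals) with that of Olr1247, so the signals of this pair are uncertain.

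Olr1247: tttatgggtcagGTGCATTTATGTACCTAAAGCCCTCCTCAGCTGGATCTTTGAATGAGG
Olr1248: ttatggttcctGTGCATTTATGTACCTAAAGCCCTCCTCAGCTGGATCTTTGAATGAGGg

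These probes lie at chr8:40696505-40696564 and chr8:40711214-40711273 on the plus strand. Of the 8 members that were not on all arrays, 5 passed through the control group. Olr651, Olr714 and Olr237 of these had lower means on the TCDD arrays, by -0.40, -0.17 and -0.10, with limma adjusted p from 0.584 to 0.921. The others of these, Olr1401 and Olr132, had higher means on the TCDD arrays, by 0.91 and 0.05. Olr386, Olr563 and Taar8c, which passed through the TCDD group, were higher there by 0.70, 0.41 and 0.57. Such members had to be brighter in the group through which they passed more often than not, so their direction says nothing further.

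Across 4 olfactory receptor probes the arrays fell into the same order, which was not the order of the groups. Olr1411, Olr1454, Olr528 (now Or8h7) and Olr1401 (now Or2y11) were high on TCDD arrays 2, 3 and 4 and on control array 4, and low on TCDD array 1 and on control arrays 1, 2 and 3. Olr528 had -3.45, -2.16, -2.11 and -2.27 on the TCDD arrays, against -3.84, -3.89, -4.00 and -2.47 on the control arrays. Olr1401 had -5.26, -3.38, -3.19 and -3.03 on the TCDD arrays, against -5.14, -4.83, -5.16 and -3.38 on the control arrays. Olr1454 had -0.999, -0.15, -0.19 and -0.24 on the TCDD arrays, against -0.93, -1.08, -0.97 and -0.24 on the control arrays. No array lay between the high and the low values of these probes. Their group differences of 0.49 (Olr1411), 0.41 (Olr1454), 1.05 (Olr528) and 0.91 (Olr1401) therefore come with 3 high arrays in the TCDD group and 1 in the control group, and their adjusted p ranged from 0.395 to 0.634.

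The 4 genes lie on chromosomes 10 and 3, and their probes share the 8 letters CCCCATGC, in capitals below, which lie in the stretch that codes for a conserved motif of the last membrane-spanning segment of these receptors. In all 4 probes the letters are followed by T, then by G or C, then by AACCC, so these probes share more than the 8 letters. The letters were found after the values had been seen. The sequences are shown because each of these probes holds the letters.

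Olr1411: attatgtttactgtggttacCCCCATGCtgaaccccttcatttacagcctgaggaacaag
Olr1454: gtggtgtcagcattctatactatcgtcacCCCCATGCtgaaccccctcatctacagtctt
Olr528: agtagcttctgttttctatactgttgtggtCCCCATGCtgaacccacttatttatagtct
Olr1401: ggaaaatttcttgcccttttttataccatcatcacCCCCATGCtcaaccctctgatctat

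Their positions are chr10:36634918-36634977, chr10:44983949-44984008 and chr10:34998854-34998913 on the plus strand for Olr1411, Olr1454 and Olr1401, and chr3:70279758-70279817 on the minus strand for Olr528. The letters CCCCATGC stand in 24 of the 30367 probes of the array (0.079%), of which 9 are receptor probes, and the reverse complement GCATGGGG in 20 (0.066%). Of the 16 probes with CCCCATGC that passed the filter, 7 had the same 4 arrays highest with a gap of at least 0.3 to the next array. These 7 include the 4 receptor probes in which the letters were found, so the count is a description and no test of the letters. Among passing probes without these letters 30 of 19086 did (0.157%). Of the 8 passing probes with the reverse complement, 0 did.

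The 3 probes outside the receptor class that hold the letters and had this order were those of Ccnj (cyclin J), of the locus LOC686143 and of a target without a gene name. They are outside the class by gene name, and what else they share with receptor probes was not tested.

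Ccnj: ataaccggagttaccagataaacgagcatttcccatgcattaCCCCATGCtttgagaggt
LOC686143: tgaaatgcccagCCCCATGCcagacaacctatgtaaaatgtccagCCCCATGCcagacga
Unnamed target: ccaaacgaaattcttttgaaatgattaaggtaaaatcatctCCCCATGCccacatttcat

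The Ccnj probe, at chr1:246012489-246012548 on the plus strand, had -2.74, -0.90, -0.76 and -0.73 on the TCDD arrays, against -3.19, -3.04, -3.07 and -0.77 on the control arrays. The LOC686143 probe, at chr2:185892739-185892798 on the minus strand, holds the letters at 2 places and had 1.08, 1.68, 1.67 and 1.73 on the TCDD arrays, against 1.03, 0.81, 0.71 and 1.68 on the control arrays. Among receptor probes that hold the letters without being members, Olr481 had -6.59, -5.08, -5.18 and -5.45 on the TCDD arrays, against -7.53, -8.08, -7.80 and -5.76 on the control arrays. It thus had the same arrays high at a signal near background. Olr1400 did not show the order cleanly, and Olr1084, Olr464 and Olr1351 were above background on 0 TCDD arrays and on 1, 1 and 0 control arrays.

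Without the letters, the probes with the same 4 arrays highest included 8 of the globin genes Hbb, Hbe2 and Hba-a2 and of Alas2 and Ahsp, which serve haemoglobin in red blood cells. Alas2, which starts haem synthesis there, had -0.13, 1.67, 0.48 and 1.01 on the TCDD arrays, against -1.35, -1.36, -1.07 and 0.90 on the control arrays. The summed signal of the 3 red cell markers Hbb, Alas2 and Ahsp was 6.04 to 6.90 on the TCDD arrays and 5.09 to 6.57 on the control arrays, and all 3 had higher means on the TCDD arrays with none past the threshold. Olr386 was the remaining receptor gene in that order, without the letters. The part of blood, or of the shared letters, in the 4 receptor signals was not tested. Leaving out the 3 probes with the letters, the 37 other members on all 8 arrays had a median difference of 0.276, and 33 of them (89.2%) were above 0.

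**Figure D5:**
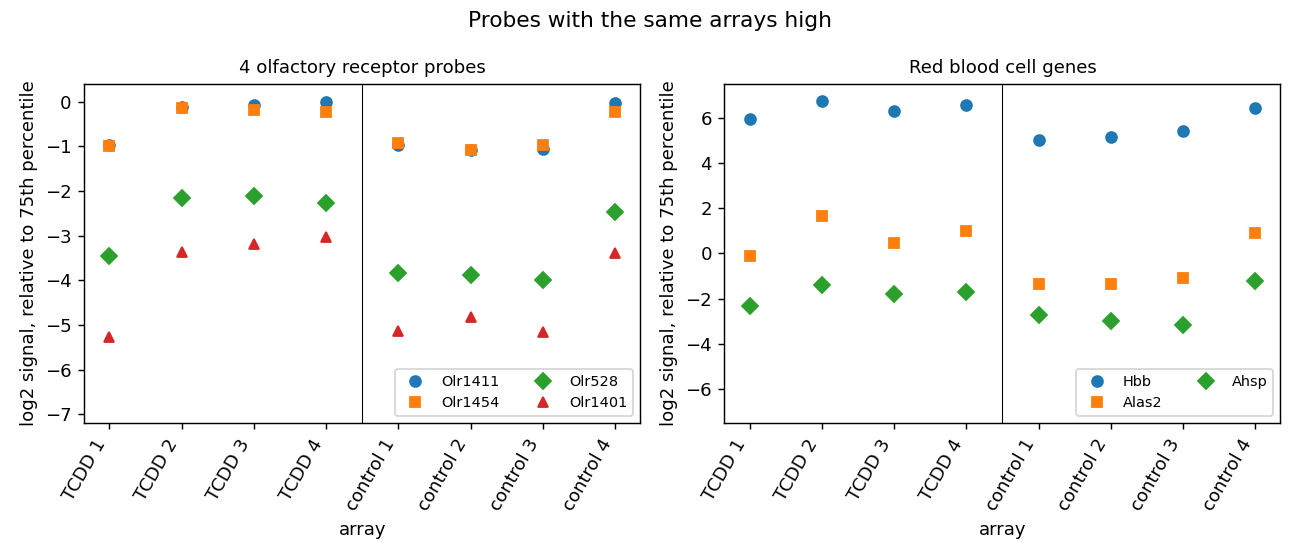
Log2 signal by array of the 4 olfactory receptor probes that hold the letters CCCCATGC (left) and of the red blood cell genes Hbb, Alas2 and Ahsp (right), with TCDD arrays left of the vertical line and control arrays right of it. In the left panel TCDD 2, TCDD 3, TCDD 4 and control 4 are high and the other arrays low. In the right panel the same 4 arrays are highest with more spread among the rest.

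The genes through which these receptors work gave no change past the threshold. Of the olfactory transduction list 16 of 18 genes were on the array and 9 were measured, of which 4 had a higher and 5 a lower mean on the TCDD arrays (median difference -0.013), with 0 past the threshold. Gnal, the olfactory G protein subunit that also serves dopamine receptors of the striatum, averaged -0.22 ± 0.11 on the TCDD arrays and -0.44 ± 0.03 on the control arrays (SD, n = 4 each), with an adjusted p of 0.253. Ric8b, which helps Gnal to assemble, averaged -4.00 ± 0.15 on the TCDD arrays and -4.32 ± 0.14 on the control arrays (adjusted p = 0.274). Adcy3, the cyclase of the pathway, averaged -1.98 ± 0.16 on the TCDD arrays and -1.94 ± 0.05 on the control arrays. Cnga2 and Cnga4, subunits of the channel, were above background on 0 arrays, whereas Cngb1 was so on all 8.

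All 5 vomeronasal transduction genes were measured, and all 5 had lower means on the TCDD arrays (median -0.053), none past the threshold. Trpc2, their channel, averaged -0.16 ± 0.03 on the TCDD arrays and -0.05 ± 0.11 on the control arrays with its brighter probe (adjusted p = 0.593). Its other probe was above background on 0 of 8 arrays, with means of -7.60 (TCDD) and -7.77 (control). Of 14 taste transduction genes on the array 4 were measured, all 4 with higher means on the TCDD arrays (median 0.069) and none past the threshold. Of the genes for receptor trafficking and choice 11 were measured, 3 higher and 8 lower (median -0.015), again with 0 past the threshold. Rtp1 and Rtp2, the chaperones that carry olfactory receptors to the cell surface, were above background on 0 arrays. Their relative Rtp4 averaged -2.58 ± 0.56 on the TCDD arrays and -2.07 ± 0.33 on the control arrays (adjusted p = 0.583). Lhx2 and Emx2, transcription factors needed for receptor choice in the nose and also used in forebrain development, were detected on all 8 arrays and differed by 0.005 and 0.02.

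No measure of the arrays themselves passed its test between the groups. The median of the local background was 59.1 ± 2.1 intensity units on the TCDD arrays and 60.8 ± 2.6 on the control arrays (2-sided exact permutation p = 0.4, adjusted over 5 measures 0.771). The share of probes well above background was 64.9% ± 2.2 on the TCDD arrays and 65.6% ± 0.8 on the control arrays (exact permutation p = 0.771). The 5 adjusted values were all 0.771, and the smallest p that the 70 assignments of the arrays allow is 0.0286 before adjustment. After adjustment over 5 measures, 1 measure alone could not fall under 0.05 even with the groups fully apart. These tests therefore cannot decide whether a single measure differed between the groups.

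The receptor shift depended on how the background was treated. With normexp (a model-based background correction that here adds a constant of 50 to every signal) the median difference of the 40 members was 0.084, with 32 of 40 above 0, against -0.031 for the other probes. Without any background subtraction it was 0.085, with 31 of 40 above 0, against -0.027. Both settings keep a constant under dim signals, which by construction makes log2 differences smaller, and its part in these values was not tested. Olr1414 differed by 0.18 with normexp and Olr1415 by 0.03, while the brighter Olr1439 differed by 0.26. Quantile normalization and the authors' table gave a median of 0.281 in both cases, with 36 of 40 above 0.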

How the data were processed

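The deposited scanner files hold spot intensity on a linear scale, from Agilent Feature Extraction 10.7.1.1 with probe positions on rat build rn4, per the file headers. The processed signal is background-subtracted by the software, and dim spots carry a surrogate value. The authors' value table, also intensity, served as an alternative: its columns share 1 median, as quantile normalization gives, and its centring is not stated. Labelled cRNA came from RNeasy-purified total RNA, per the labels' protocols.

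Signals were scaled to the 75th percentile of each array's 30367 probes and taken to log2, spots of a probe averaged without outlier spots. Probes well above background on all 4 arrays of a group were kept (19102, with a flag mean of at least 0.5 for several spots). For each of 16574 genes, 1 probe of highest signal was tested. The test was limma 3.58.1 (R 4.3.3, lmFit, eBayes, 2-sided, Benjamini-Hochberg, threshold 0.05). The fit was also run on simulated data, whose outcome is not given here. Array measures had exact permutation tests. Current names came from RefSeq (GRCr8) for 47 of 48 members. Arrays of a group are separate samples in the labels. Nothing there says more of the dams, so p-values measure the spread between these samples. Same-numbered arrays deviated together with correlations of 0.228, -0.0031, -0.0452 and 0.103, so numbers were not taken as pairs.

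The members, gene lists and tests were chosen with earlier results of these data known. Genes were named by rule: the 10 brightest Olr members and up to 4 of each other family, the 6 largest differences each way among members on all arrays, the 5 smallest p each way, the values beside the threshold, genes with another probe, Taar1, Tas1r1, Tas1r2, Tas1r3, Olr59 and Olr1414. Tas1r2 has no probe under that name on this array. The array order, its letters and the examples beyond the rule (such as Olr1375, Olr1593, Olr1248, Olr1401 and Olr386) were chosen after their values were seen. Figures used Python 3.11.15 and matplotlib 3.10.9.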

Additional observations from a re-analysis of the deposited data

Results flagged for a closer look

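In 112 groups of 4 arrays, 17 held 1 array whose gap to its nearest neighbour exceeded Dixon's critical share of the group's range; chance gives about 1 in 20 groups. On the first TCDD array this was a low value for Olr1411 (-0.97, against -0.13 to -0.02 on the others), Olr1454 (-0.999, against -0.24 to -0.15), Olr528 (-3.45, against -2.27 to -2.11) and Olr1401 (-5.26, against -3.38 to -3.03), and the count of receptor probes above background (56, against 87 to 89). On the fourth control array it was a high value for Olr1411 (-0.033, against -1.08 to -0.98), Olr528 (-2.47, against -4.00 to -3.84) and Olr1414 (-4.50, against -4.68 to -4.67), and a low one for Olr1375 (-3.56, against -3.47 to -3.45).

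The second TCDD array was low for Olr1227 (-3.16), Olr425 (-4.31) and Olr791 (-4.81). The fourth TCDD array was low for Olr1415 (-4.48) and for the local background (56 units, against 60 to 60.5). The third control array was high for Vom1r57 (-4.09) and Olr213 (-4.22), and the first control array was low for Olr132 (-5.20).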

How the results depend on the processing

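Against 3 genes past the threshold, normexp gave 22, no background subtraction 35, the filter of all 8 arrays 28, trend and robust 34, array weights 102 and no filter 0. With the replicate number as a block it was 0, which changed no call of a receptor gene. Leaving out each array gave 0 to 6. Receptor genes past the threshold were 0, except 1 (Olr1414) with the filter of all 8 arrays and 3 (Olr1335, Olr1414 and Olr1439) with array weights, and 0 without each array. Detection counts were 194 for at least 1 array and 160 for the positive and significant flag, against 48. Without the filter, the receptors' median difference (0.145) turned to -0.109 with normexp and -0.08 without background subtraction, and its excess over other probes (0.136) to -0.049 and -0.031. Leaving out arrays gave 0.031 to 0.209 and 0.031 to 0.19. Over members on all 8 arrays (0.295) those settings gave 0.084 and 0.085, and leaving out arrays 0.266 to 0.336. Leaving out TCDD 1 and control 1, chosen after seeing the data, gave 0.294 there and 0.036 unfiltered. Of 633 values of 29 named genes under alternatives, 18 in 6 genes near 0 reversed: Vom2r34 (normexp 0.048, no subtraction 0.04, percentile over spots 0.009, array weights 0.005), Vom2r35 (-0.048 and -0.039) and Vom2r56 (-0.008 without subtraction), and, leaving out arrays, Vom2r34 (-0.132 to 0.157), Olr200 (-0.125 to 0.108), Olr237 (-0.281 to 0.034) and Olr791 (-0.127 to 0.046). The cause of these changes was not tested. Most receptor signals lay near the negative controls, which limits what they can show.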
